A study of Mus musculus with 6 samples.

Results

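The zinc finger protein (Zfp) genes of mouse dendritic cells were examined after 6 h with lysine, against samples given phosphate-buffered saline (PBS). A gene was included when its name was Zfp followed by digits alone, leaving out Zfp36, and when it reached 1 TPM in 3 or more of the 6 samples. TPM is transcript abundance corrected for gene length and scaled to the same total in every sample. Of 379 genes with such a name, 267 met the level and 112 did not. The whole table listed 55740 gene models, of which 12539 met the same level. The members were thus chosen by their TPM, so their being expressed is no result. The level also let in 14 members through 1 group alone, 12 through the PBS samples and 2 through the lysine samples, and those 14 had to differ between the groups.

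The cells were bone marrow-derived dendritic cells, antigen-presenting cells grown in culture from the bone marrow of C57BL/6J mice, an inbred strain. The lysine group was 3 samples supplied with 18 mM lysine for 6 h, and the PBS group was 3 samples supplied with PBS. Total RNA was sequenced on an Illumina NovaSeq instrument. The labels do not say whether the samples of a group came from separate mice or cultures, so the p-values reflect sample-to-sample spread that could be technical.

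Most Zfp proteins carry C2H2 zinc fingers, small folds in which a pair of cysteines and a pair of histidines hold a zinc ion and in which a few residues touch the bases of DNA. In many of them a KRAB box, a short domain near the start of the protein, recruits the co-repressor Trim28, which brings the histone methyltransferase Setdb1, heterochromatin proteins and the NuRD deacetylase complex to the bound site. KRAB zinc finger proteins are best known for silencing retroelements and imprinted genes. Zfp is a naming class and not one family: some members bind RNA, join ribosomes or ligate ubiquitin or SUMO.

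The finger repeat is shown here in the members with the largest rise and the largest fall, Zfp382 and Zfp710. The lines give the coding bases of the first 3 fingers of each protein, from GENCODE M21 transcripts on GRCm38, both genes lying on chromosome 7. Capitals mark the codons of the 2 cysteines and 2 histidines.
Zfp382 finger 1: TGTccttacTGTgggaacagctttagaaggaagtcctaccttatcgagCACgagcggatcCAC
Zfp382 finger 2: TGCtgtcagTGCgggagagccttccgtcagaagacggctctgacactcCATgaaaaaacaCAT
Zfp382 finger 3: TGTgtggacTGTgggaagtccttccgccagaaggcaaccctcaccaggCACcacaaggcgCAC
Zfp710 finger 1: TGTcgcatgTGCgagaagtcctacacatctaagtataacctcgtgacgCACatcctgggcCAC
Zfp710 finger 2: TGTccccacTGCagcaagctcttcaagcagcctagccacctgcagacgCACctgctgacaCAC
Zfp710 finger 3: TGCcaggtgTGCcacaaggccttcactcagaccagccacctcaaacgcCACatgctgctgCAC
In Zfp382 the 3 fingers lie at coding bases 979 to 1041, 1063 to 1125 and 1147 to 1209, counted from 1 at the start codon. In Zfp710 they lie at coding bases 895 to 957, 979 to 1041 and 1063 to 1125. Successive fingers began 84 bases apart at all 8 gaps of Zfp382 and all 10 gaps of Zfp710. The pattern searched was cysteine, 2 or 4 residues, cysteine, 12 residues, histidine, 3 to 5 residues and histidine.

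Among the 263 members with an annotated coding region, the number of matches to that pattern had a median of 10 and a range of 0 to 36, the highest in Zfp142. A match was missing in 6 members: Zfp839, Zfp330, Zfp503, Zfp993, Zfp972 and Zfp703. The median protein was 579 residues long. A KRAB box was found in 151 members and not in 112. Only the longest coding region of each gene was searched, so a box that the search missed is counted as absent. The 4 members without a coding region in that annotation were Zfp939, Zfp469, Zfp125 and Zfp783. KRAB members had a median of 11 fingers, and members without the box had 7. Their levels differed too: the median of the mean TPM was 3.71 in KRAB members and 8.46 in the others.

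Zfp genes were expressed at low levels. The mean TPM over the 6 samples ran between 0.895 and 139, with quartiles of 2.49, 5.05 and 10.8, whereas the median over all tested genes was 13.6. A mean of 10 TPM or more was reached by 73 members, and 133 stayed under 5 TPM. The summed TPM of the members was 2380, 2380 and 2420 in the lysine samples, against 2070, 2110 and 2200 in the PBS samples. Every lysine sample was thus above every PBS sample in the sum, which was 0.238% to 0.242% of all TPM with lysine and 0.207% to 0.22% with PBS. The median member did not separate the groups: it stood at 4.9, 5.19 and 4.64 TPM in the lysine samples and at 4.85, 4.79 and 4.81 TPM in the PBS samples. The number of members at 1 TPM or more was 246, 246 and 245 in the lysine samples and 260, 258 and 260 in the PBS samples. That gap is no result, since the same level chose the members and let in 12 through PBS alone and 2 through lysine alone. Over all genes the numbers at 1 TPM or more overlapped, at 12360, 12277 and 12393 with lysine and 12375, 12395 and 12449 with PBS. The file gives no counts, so the depth behind each TPM is unknown.

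Of 10 listed dendritic cell markers, 8 reached the level and were above 0 TPM in all 6 samples, and Xcr1 and Cd209a did not reach it. Cd74, the MHC class II invariant chain, was at 2999.36 to 4045.94 TPM with lysine and at 2735.1 to 4140.55 TPM with PBS. Itgax, which encodes CD11c, was at 371.39 to 384.39 TPM with lysine and at 347.43 to 385.03 TPM with PBS. Flt3, the receptor of a dendritic cell growth factor, was low, at 0.95 to 1.68 TPM with lysine and 1.26 to 2.66 TPM with PBS. Of 8 dendritic cell markers tested 0 rose and 1, Batf3, fell. Samples of a group correlated at 0.974 to 0.982 and samples of different groups at 0.914 to 0.934, on log2(TPM + 1) over the tested genes. Marker lists of other cells moved with lysine in part. For macrophages and monocytes 0 rose and 5 fell of 8 tested, with a summed TPM of 693 to 737 in the lysine samples and 746 to 767 in the PBS samples. Among these, Csf1r was at 237.83 to 259.24 TPM with lysine and 246.89 to 288.04 TPM with PBS. Cd14 was at 336.19 to 414.55 TPM with lysine and 288.75 to 353.55 TPM with PBS. Neither Csf1r nor Cd14 was called. The neutrophil sum, nearly all S100a8, was 33.8 to 39.7 TPM with lysine and 74.1 to 111 TPM with PBS (0 rose and 1 fell of 2 tested, with Elane at 0 throughout). S100a9, the other gene tested, was at 0.45 to 2.22 TPM with lysine and 0.9 to 2.48 TPM with PBS and was not called. The erythroid and platelet sum, nearly all Pf4, was 207 to 229 TPM with lysine and 427 to 502 TPM with PBS (1 of 2 tested fell). The mast cell and basophil sum was 0.27 to 0.6 TPM with lysine and 3.09 to 6.38 TPM with PBS (the 1 gene tested fell, with Mcpt4 at 0). B cell genes summed to 2.31 to 7.99 TPM with lysine and 1.84 to 7.16 TPM with PBS, and T and NK cell genes to 2.36 to 17.5 TPM with lysine and 8.32 to 26.7 TPM with PBS. Of the 1 and 4 of these that were tested, limma called 0, and 0 had an unadjusted p under 0.05. In each gene tested, the third lysine sample and the third PBS sample were the highest of their group. Stromal genes, at 0.71 to 1.35 TPM with lysine and 0.77 to 0.83 TPM with PBS, were too low to test. Of 13 mitochondrial mRNAs 0 rose and 6 fell, and of 5 short non-coding RNAs 4 rose and 1 fell, with sums of 313 to 483 TPM with lysine and 77.2 to 133 TPM with PBS. The part of these lists in the Zfp results was not tested. In bulk RNA fewer cells of a type and less RNA per cell cannot be told apart.

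Lysine was followed by rises in some Zfp genes and falls in others, in numbers that depended on the processing. A gene was called when limma on log2(TPM + 1), fitted over all 12539 genes, gave a Benjamini-Hochberg adjusted p under 0.05. By that rule 64 of the 267 members rose, 66 fell and 137 were not called. The called share was 48.7%, against 55.1% of all tested genes. Rises made up 24.0% of members against 25.8% of all tested genes, and falls made up 24.7% against 29.3%. The lysine and PBS samples did not overlap in 166 members, or 62.2%, against 63.4% of all tested genes. These shares lay near or under the background. The log2 fold change of TPM + 1, lysine over PBS, ran between -1.46 and 1.41, with a median of -0.037 for the members and -0.05 for all tested genes. A change of 2-fold or more in mean TPM was seen in 16 of the rises and 17 of the falls among the 267 members. Over the 12539 tested genes it was seen in 1054 rises and 1302 falls. Of the 17 falls, 10 were in members with a mean under 2 TPM, where the inclusion level fixed some directions.

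The balance of rises and falls depended on scaling and on the filter. With quantile normalization 77 members rose and 52 fell, so that rises were 59.7% of the members' calls, and 49.2% of the calls over all tested genes. On the TPM as deposited rises were 49.2% of the members' calls and 46.8% of all calls. With a filter at 5 TPM 55 members rose and 32 fell (63.2% rises, against 47.8% over all tested genes), and with every gene above 0 TPM tested 50 rose and 38 fell (56.8%, against 48.3%). Leaving out the 14 members let in by 1 group, 63 rose and 56 fell, and the median was -0.007.

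**Figure D1:**
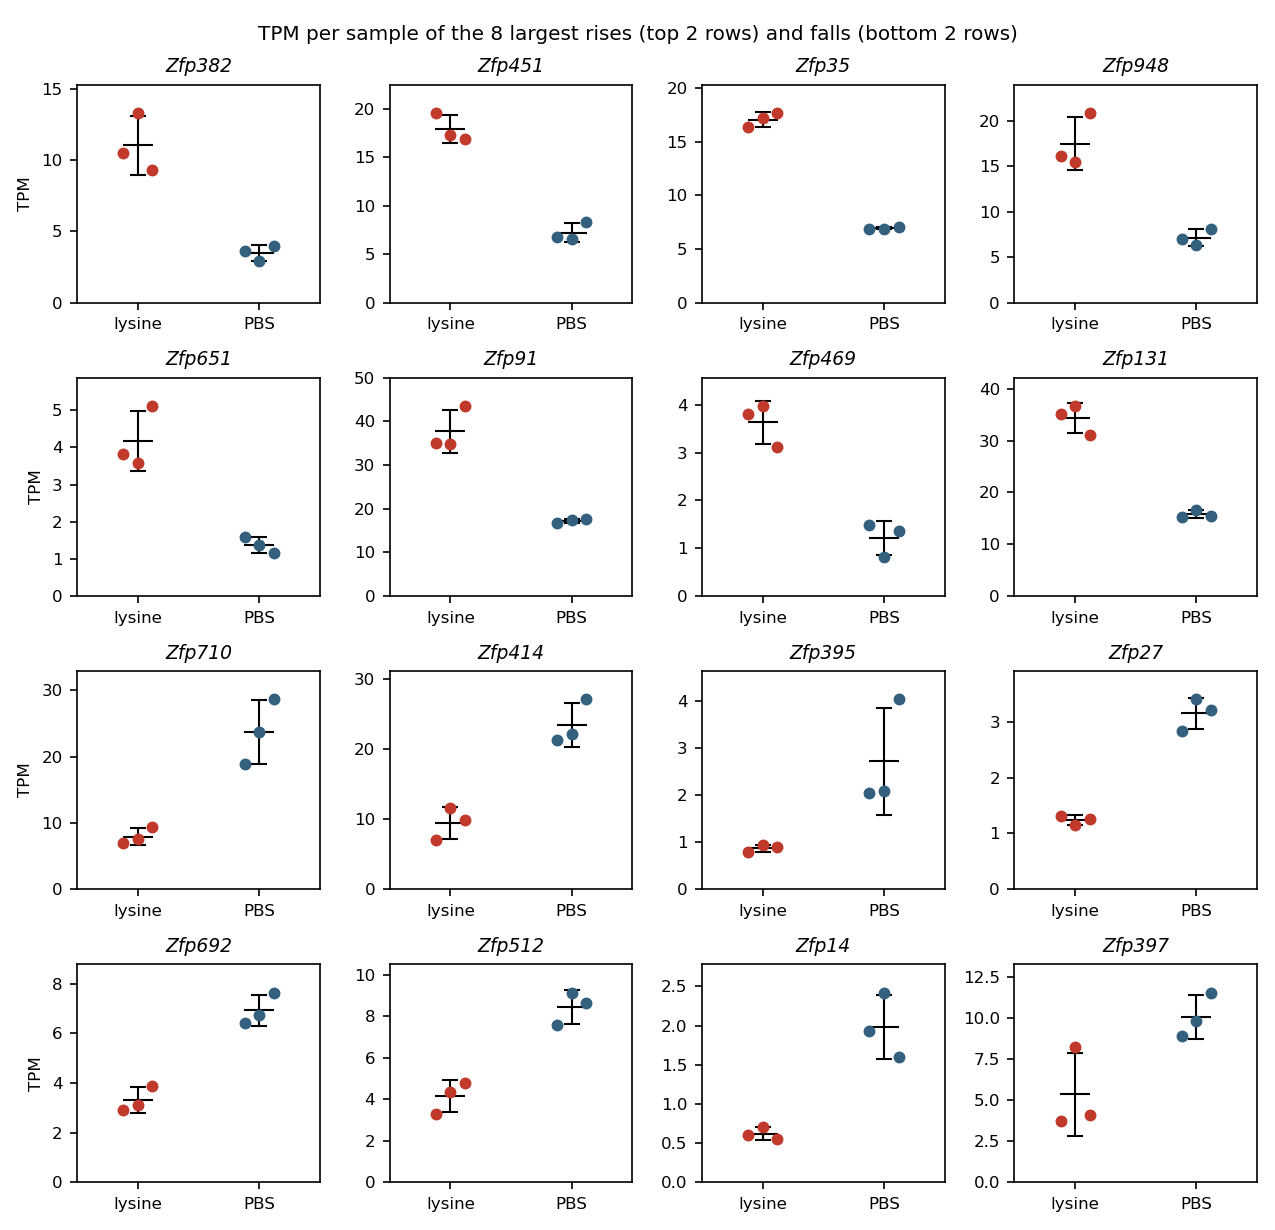
TPM in each sample (vertical axes, from 0) of the 8 Zfp genes with the largest rises and the 8 with the largest falls, lysine left and PBS right. Points are samples, horizontal bars are means and whiskers are 1 SD (n = 3 each). The groups are apart in all 16 panels, since that was part of how these genes were picked, and the narrowest gap is in Zfp397.

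The largest rise was in Zfp382, a KRAB gene with 9 fingers on the plus strand of chromosome 7, bases 30121942 to 30134950 (GRCm38). Its level was 10.49, 13.29 and 9.3 TPM in the lysine samples, against 3.6, 2.89 and 4 TPM in the PBS samples. The lowest lysine sample was above every PBS sample by more than the PBS samples spread. The mean was 11 ± 2.05 TPM with lysine and 3.5 ± 0.562 TPM with PBS (SD, n = 3 each), a 3.15-fold difference in TPM. On the log2(TPM + 1) scale the change was 1.41 ± 0.16 (SE; adjusted p = 0.000531). That scale understates the change of low genes.

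Zfp451, which encodes a SUMO ligase, was at 19.57, 17.32 and 16.85 TPM with lysine and at 6.74, 6.58 and 8.32 TPM with PBS (log2 change 1.21 ± 0.11, adjusted p = 0.000256). Zfp91, a ubiquitin ligase that acts on the NF-kappa-B-inducing kinase, was at 35, 34.88 and 43.5 TPM with lysine and at 16.67, 17.48 and 17.56 TPM with PBS. Zfp131, a BTB-domain transcription factor, was at 35.18, 36.65 and 31.07 TPM with lysine and at 15.21, 16.66 and 15.42 TPM with PBS. In each of these 3 genes the PBS samples lay close together and the lysine samples were about a doubling above them: the fold in mean TPM was 2.48, 2.19 and 2.18.

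Zfp35, a gene with 17 fingers and no KRAB box, had the smallest adjusted p of the 16 largest changes (6.73e-05). It stood at 16.34, 17.17 and 17.67 TPM with lysine and at 6.87, 6.87 and 7.02 TPM with PBS. Zfp948, a KRAB gene with 15 fingers, stood at 16.17, 15.45 and 20.86 TPM with lysine and at 7.03, 6.29 and 8.15 TPM with PBS. The remaining members of the 8 were low: Zfp651 averaged 4.18 ± 0.817 TPM with lysine and 1.37 ± 0.215 TPM with PBS. Zfp469, annotated here as a long non-coding RNA, averaged 3.63 ± 0.452 TPM with lysine and 1.21 ± 0.355 TPM with PBS (SD, n = 3 each).

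The largest fall was in Zfp710, a gene with 11 fingers and no KRAB box on the plus strand of chromosome 7, bases 80024814 to 80094173. It was at 6.89, 7.51 and 9.4 TPM in the lysine samples, against 18.84, 23.65 and 28.62 TPM in the PBS samples. The PBS samples spread widely, and the lowest of them was still above the highest lysine sample. The log2 change was -1.46 ± 0.17 (SE; adjusted p = 0.000657), and mean TPM was 2.99-fold lower with lysine. Zfp414, with 2 fingers, was at 7.04, 11.54 and 9.95 TPM with lysine and at 21.3, 22.13 and 27.1 TPM with PBS (log2 change -1.24 ± 0.18, adjusted p = 0.00149).

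The other 6 of the largest falls were at lower levels. Zfp395, whose human counterpart binds the promoter of the Huntington disease gene, was at 0.79, 0.93 and 0.9 TPM with lysine and at 2.04, 2.08 and 4.04 TPM with PBS. The third PBS sample of Zfp395 stood at nearly the sum of the others. The KRAB genes Zfp27 and Zfp14 fell by 0.89 and 0.87 on the log2 scale: Zfp27 averaged 1.24 ± 0.0854 TPM with lysine and 3.15 ± 0.285 TPM with PBS. Zfp14 averaged 0.623 ± 0.0777 TPM with lysine and 1.98 ± 0.413 TPM with PBS. Zfp14 and Zfp395 were among the members let in by the PBS samples alone. Zfp692 averaged 3.31 ± 0.525 TPM with lysine and 6.93 ± 0.641 TPM with PBS, and Zfp512 averaged 4.15 ± 0.766 TPM with lysine and 8.45 ± 0.801 TPM with PBS (SD, n = 3 each). Zfp397, a SCAN-domain gene, was at 3.73, 8.21 and 4.08 TPM with lysine and at 8.87, 9.78 and 11.52 TPM with PBS. The second lysine sample of Zfp397 lay near the PBS range, and its adjusted p of 0.0291 was lost in 5 of the 6 fits that left out a sample, at up to 0.0868.

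The most abundant member was Zfp207, a microtubule-binding protein that helps load Bub3 onto kinetochores in mitosis. Zfp207 had 174.63, 167.86 and 175.05 TPM with lysine and 110.22, 106.11 and 99.03 TPM with PBS (log2 change 0.71 ± 0.058, adjusted p = 0.000159). Zfp384, which binds promoters of matrix metalloproteinase genes, had 50.98, 53.82 and 56.71 TPM with lysine and 31.87, 30.66 and 35.04 TPM with PBS (adjusted p = 0.000424). In both genes the gap between the groups was larger than the spread within either. Zfp706, a small protein with 1 finger, had 65.5, 45.42 and 82.61 TPM with lysine and 49.93, 52.71 and 60.43 TPM with PBS. The lysine samples of Zfp706 lay on both sides of the PBS samples (adjusted p = 0.433). Zfp106, an RNA-binding protein, averaged 42.3 ± 2.16 TPM with lysine and 38.9 ± 1.11 TPM with PBS and was not called (adjusted p = 0.155). Zfp971 averaged 34.2 ± 0.659 TPM with lysine and 40.3 ± 1.58 TPM with PBS (SD, n = 3 each; adjusted p = 0.0158), and without the second PBS sample that p was 0.0609. Zfp971 shares 34.1% of its 50-base coding words with another gene, so its TPM also depends on how reads were split.

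The direction of the calls went with the level. Among the 52 members with a mean under 2 TPM, 1 rose and 20 fell. Leaving out 1 sample gave 9 to 17 falls, the fewest without the first lysine sample, and testing every gene above 0 TPM gave 8, with 1 rise each time. Among the 73 at 10 TPM or more, 34 rose and 14 fell. Over all tested genes 238 rose and 323 fell of 1429 under 2 TPM. At 10 TPM or more 2256 rose and 2187 fell of 7264. Between those levels 11 of 81 members rose and 18 fell at 2 to 5 TPM, beside 344 and 514 of 1901 tested genes. Both shares of members there, 13.6% and 22.2%, were under those of all tested genes, 18.1% and 27.0%. At 5 to 10 TPM 18 of 61 members rose and 14 fell, beside 393 and 649 of 1945 tested genes. Under quantile normalization 2 members rose and 13 fell under 2 TPM, and 35 rose and 15 fell at 10 TPM or more. At 2 to 5 TPM, however, the split of members turned to 17 higher and 13 lower. Over all tested genes that scaling gave 276 rises and 263 falls under 2 TPM and 2269 and 2320 at 10 TPM or more. At 2 to 5 TPM it gave 408 and 428. The inclusion level bears on the lowest group: without the members let in by 1 group alone, 0 rose and 10 fell of 38 under 2 TPM (0 and 13 at an unadjusted p under 0.05), and by the same exclusion 72 rose and 144 fell of 1052 tested genes. Spearman's rho between log2 change and mean TPM was 0.34 across the 267 members and 0.09 across all tested genes. It is given as a description, since all genes share the same 6 libraries.

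**Figure D2:**
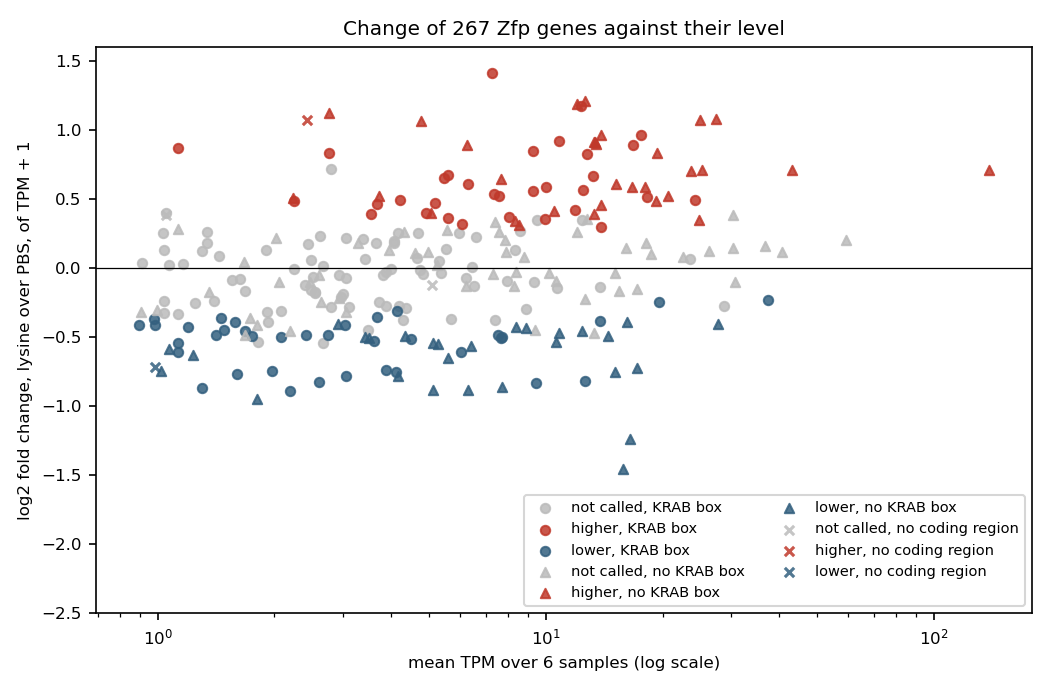
Log2 fold change of TPM + 1, lysine over PBS (vertical axis), against mean TPM over 6 samples on a log scale (horizontal axis) for the 267 Zfp genes. Colour gives the call and the marker shape gives whether a KRAB box was found. Most points under 2 TPM that are called lie below 0 (1 higher, 20 lower), and most called points at 10 TPM or more lie above it (34 higher, 14 lower). The inclusion level fixed the direction of members let in by 1 group alone. Without those members 0 were higher and 10 lower under 2 TPM.

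**Figure D3:**
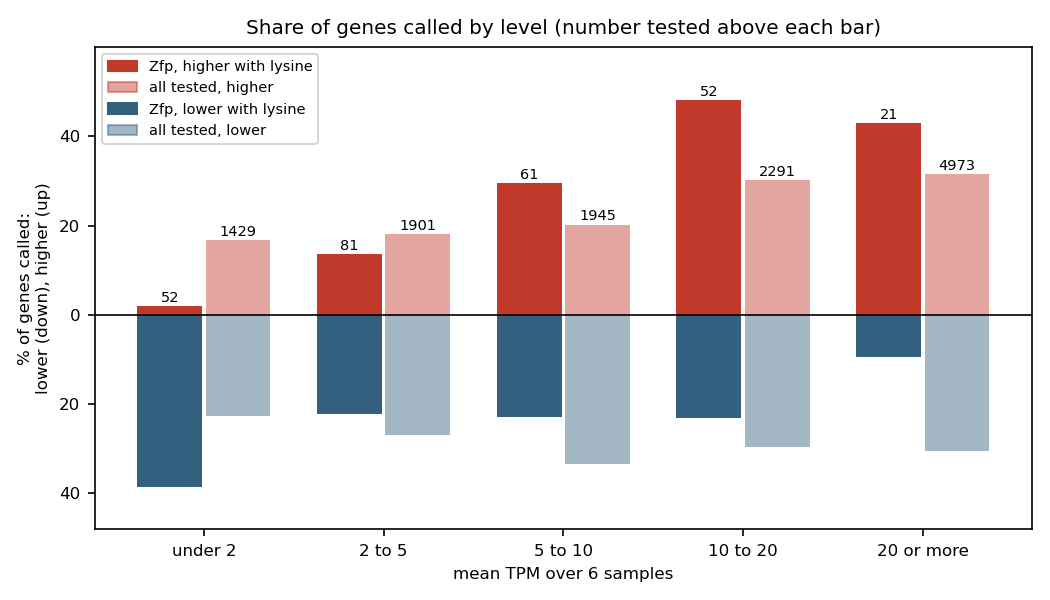
Share of genes called higher (upward) or lower (downward) with lysine in 5 ranges of mean TPM, Zfp genes in full colour on the left of each pair and all tested genes in pale colour on the right. Numbers above the bars are genes tested. Zfp genes called higher go up from 1.92% under 2 TPM to 48.1% at 10 to 20 TPM, while all tested genes go up from 16.7% to 30.1%. At 20 TPM or more the shares are 42.9% of Zfp genes and 31.5% of all tested genes. Under 2 TPM the bars include genes let in by 1 group alone, whose direction the inclusion level fixed.

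Just inside the inclusion level was Zfp128, a KRAB gene at 0.59, 0.52 and 0.76 TPM with lysine and at 1, 1.39 and 1.11 TPM with PBS. Just outside it was Zfp458, at 0.93, 0.71 and 0.63 TPM with lysine and at 0.99, 1.28 and 1.27 TPM with PBS. Of the 12 members let in by the PBS samples alone, 10 were called lower: Zfp395, Zfp14, Zfp128, Zfp273, Zfp446, Zfp113, Zfp105, Zfp783, Zfp94 and Zfp963. The other 2 were Zfp606 and Zfp580. The inclusion level fixed the direction of all 12, so these calls are no result. The call of Zfp113 was lost in all 6 fits that left out a sample, those of Zfp128 and Zfp273 in 5 and that of Zfp446 in 4, with adjusted p-values up to 0.122, 0.147, 0.125 and 0.0738 over the alternatives. Of the 2 let in by the lysine samples alone, Zfp667, a KRAB gene, averaged 1.76 ± 0.337 TPM with lysine and 0.507 ± 0.111 TPM with PBS (SD, n = 3 each) and was called. Zfp939 averaged 1.32 ± 0.284 TPM with lysine and 0.773 ± 0.168 TPM with PBS and was not called. The direction of both was fixed by the inclusion level as well. Of the 112 genes under the level, 17 were at 0 TPM in every sample and 95 were above 0 in at least 1. Those 112 genes summed to 31.9, 30.4 and 28.6 TPM in the lysine samples and to 42.2, 36.8 and 35.2 TPM in the PBS samples.

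Calls were counted in KRAB genes and in the rest. They are to be read beside 55.1% called, 25.8% higher, 29.3% lower and a median log2 change of -0.05 over all tested genes. Of 151 KRAB members 32 rose and 37 fell (45.7% called, median log2 change -0.064). Of 112 members without the box 31 rose and 28 fell (52.7% called, median 0.064). Which direction was the more frequent among KRAB members was not stable: leaving out 1 sample gave 24 to 29 rises and 21 to 30 falls, and a filter at 5 TPM gave 27 rises and 11 falls. The 11 members with a SCAN domain, a protein-protein interaction module, held 3 rises and 4 falls. By number of fingers, 18 rose and 12 fell of 52 members with 0 to 5, 19 rose and 24 fell of 84 with 6 to 10, 19 rose and 21 fell of 85 with 11 to 15, and 7 rose and 8 fell of 42 with 16 or more. Members with more fingers were also at lower levels (Spearman's rho -0.3 across 263 members), while log2 change and finger number had a rho of -0.09. No test of a difference between these classes was made.

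Calls in genes of like make-up but other names are given beside 25.8% higher and 29.3% lower over all tested genes, and no test set them against the Zfp members. Their median levels differed, between 3.6 TPM for the KRAB genes and 19.6 TPM for the Zc3h genes. Of 65 further genes with a KRAB box, 7 rose and 21 fell, with a median log2 change of -0.268. In the Zbtb family of BTB-domain zinc finger factors 16 of 36 rose and 5 fell (median 0.223). In the Zscan and Zkscan family 6 of 16 rose and 2 fell, and in the CCCH-type Zc3h family, whose fingers bind RNA, 7 of 14 rose and 2 fell.

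The role lists were drawn up by hand with earlier results known, so their counts and medians are descriptions, to be read beside 55.1% called, 25.8% higher, 29.3% lower and a median log2 change of -0.05 over all tested genes. Among the silencers of retroelements and imprinted genes, 4 of 6 listed members were expressed, and 2 rose and 1 fell (median 0.314). Zfp809, which silences retroviruses through their proline tRNA primer binding site, was at 15.29, 14.18 and 15.8 TPM with lysine and at 8.38, 9.66 and 11.8 TPM with PBS (log2 change 0.57 ± 0.13, adjusted p = 0.00884). Zfp568, a repressor of a placental Igf2 transcript, was at 8.52, 7.84 and 7.06 TPM with lysine and at 5.07, 4.4 and 4.86 TPM with PBS (0.61 ± 0.1, adjusted p = 0.00302). Both sets of lysine samples were above all PBS samples. Zfp445, a keeper of imprints, averaged 24.1 ± 2.14 TPM with lysine and 23.0 ± 1.72 TPM with PBS (SD, n = 3 each; adjusted p = 0.595). Zfp932 was at 6.85, 6.49 and 5.06 TPM with lysine and at 7.49, 8.83 and 11.24 TPM with PBS. Its adjusted p of 0.0397 was lost in 5 of the 6 fits that left out a sample, at up to 0.0984. Of its 50-base coding words, 55.7% also occur in other genes, the most in Gm15446. Zfp57 and Zfp708 did not reach the level.

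Of 32 partners in KRAB silencing tested, 8 rose and 9 fell (median log2 change 0.095). Those shares, 25% and 28.1%, are close to the 25.8% and 29.3% of all tested genes. Trim28 was at 102.74, 97.16 and 114.83 TPM with lysine and at 74.88, 68.49 and 80.12 TPM with PBS (log2 change 0.49 ± 0.087, adjusted p = 0.00355). The NuRD remodellers Chd4 and Chd3 rose by 0.52 and 0.85 on the log2 scale (adjusted p = 0.00144 and 0.000799). Chd4 averaged 99.5 ± 7.18 TPM with lysine and 68.9 ± 4.22 TPM with PBS, and Chd3 averaged 11.5 ± 1.03 TPM with lysine and 5.95 ± 0.586 TPM with PBS. Setdb1 stood at 15.02, 13.2 and 15.83 TPM with lysine and at 14.17, 13.9 and 16.27 TPM with PBS, fully overlapping (adjusted p = 0.945). Among the falls were the maintenance DNA methyltransferase Dnmt1, at 19.1 ± 0.712 TPM with lysine and 30.8 ± 2.09 TPM with PBS (adjusted p = 0.000548), and the deacetylase Hdac1, at 50.2 ± 2.93 TPM with lysine and 71.2 ± 1.84 TPM with PBS (adjusted p = 0.000877). The histone chaperone Daxx averaged 19.0 ± 0.686 TPM with lysine and 29.3 ± 2.63 TPM with PBS (SD, n = 3 each; adjusted p = 0.00121).

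**Figure D4:**
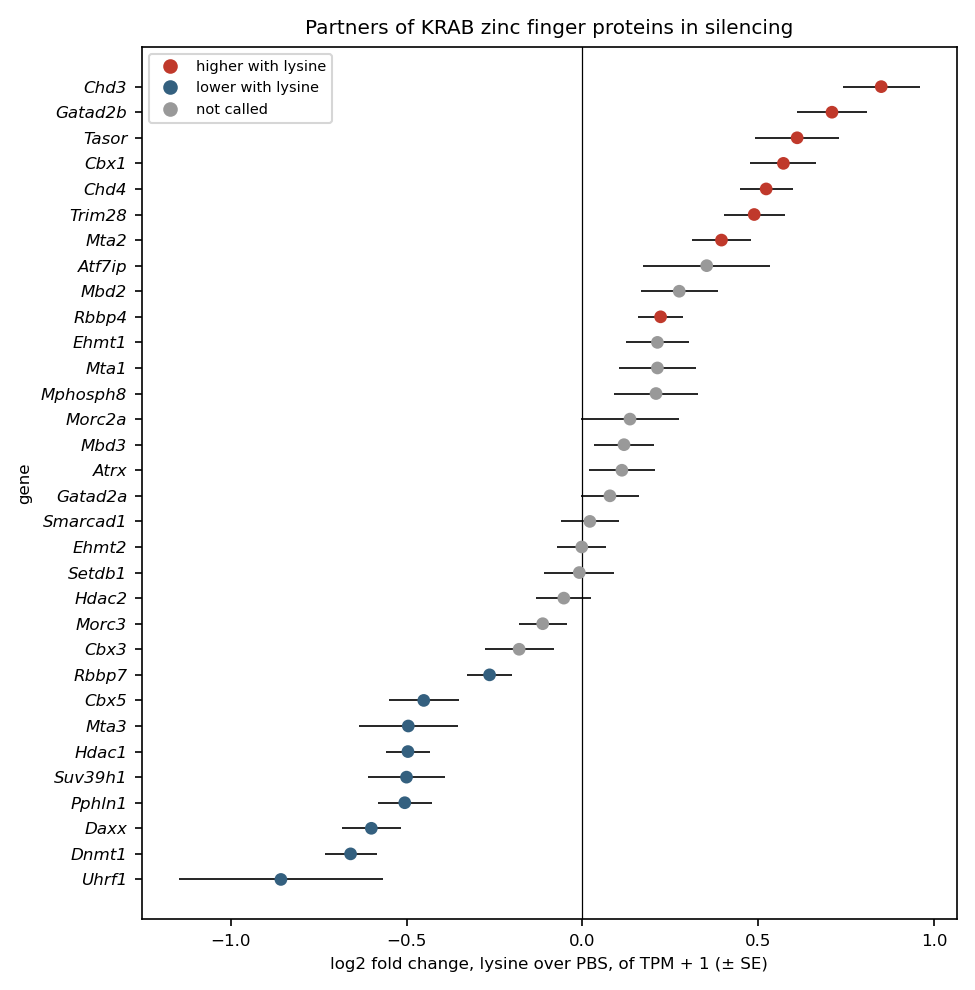
Log2 fold change of TPM + 1, lysine over PBS (horizontal axis), of the 32 tested partners of KRAB zinc finger proteins, with whiskers of 1 SE. The 8 genes called higher include Chd3, Chd4 and Trim28, the 9 called lower include Dnmt1, Hdac1 and Daxx, and Setdb1 lies at 0.

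Of 19 expressed promoter and chromatin regulators, 8 rose, 4 fell and 7 were not called (median 0.272). Zfp143, an activator bound at many promoters, was at 17.82, 17.56 and 20.81 TPM with lysine and at 8.78, 8.4 and 10.24 TPM with PBS (log2 change 0.96 ± 0.11, adjusted p = 0.000523). The lowest lysine sample was well above the highest PBS sample. Zfp410, known for its near-exclusive activation of Chd4, was at 26.07, 26.92 and 30.75 TPM with lysine and at 22.02, 20.02 and 22.97 TPM with PBS. Its call (0.35 ± 0.09, adjusted p = 0.0159) was lost without the second PBS sample, at 0.0558. Zfp609, a partner of the cohesin loader, averaged 9.55 ± 0.383 TPM with lysine and 5.76 ± 0.314 TPM with PBS. Zfp148, Zfp131, Zfp384, Zfp644 and Zfp592 were the other rises.

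The 3 related proteins of the Z3 complex, which joins Zmynd8 on chromatin, did not move together. Zfp592 rose, at 18.8, 21.68 and 20.27 TPM with lysine and at 14.28, 12.14 and 13.05 TPM with PBS (adjusted p = 0.00194). Zfp687 fell, at 2.82, 2.56 and 3.04 TPM with lysine and at 5.67, 5.8 and 5.14 TPM with PBS (adjusted p = 0.00107). Zfp532 fell as well, to 2.67 ± 0.318 TPM with lysine, against 4.18 ± 0.218 TPM with PBS (SD, n = 3 each; adjusted p = 0.00894). So the most abundant of the 3 rose and the others fell.

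Zfp746, the KRAB repressor of the gene for PGC-1-alpha also called PARIS, was at 7.15, 6.18 and 6.21 TPM with lysine and at 12.43, 12.62 and 11.97 TPM with PBS (log2 change -0.83 ± 0.088, adjusted p = 0.000428). The PBS samples of Zfp746 were nearly alike, and every lysine sample was well below the lowest of them. Zfp335, a subunit of a histone H3 methyltransferase complex, averaged 10.4 ± 1.98 TPM with lysine and 14.4 ± 1.52 TPM with PBS. The adjusted p of Zfp335 was 0.0331, and it was lost in 5 of the 6 fits that left out a sample (up to 0.1). The 7 without a call were Zfp281, Zfp217, Zfp219, Zfp263, Zfp827, Zfp292 and Zfp407. For Zfp292 the groups were nearly level, at 5.28 ± 0.244 TPM with lysine and 5.18 ± 0.178 TPM with PBS.

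Of 10 members that act on RNA, ribosomes or mitosis, 4 rose, 1 fell and 5 were not called (median 0.265). Besides Zfp207, the rises were in Zfp598, Zfp346 and Zfp326. Zfp598, a ubiquitin ligase that marks collided ribosomes, was at 28.36, 28.09 and 32.09 TPM with lysine and at 16.03, 17.75 and 19.56 TPM with PBS (log2 change 0.70 ± 0.096, adjusted p = 0.00117). Zfp346, which binds double-stranded RNA, was at 17.99, 18.72 and 16.44 TPM with lysine and at 8.3, 8.79 and 9.78 TPM with PBS (0.91 ± 0.092, adjusted p = 0.000354). Neither gene had overlapping groups. Zfp593, a factor of the large ribosomal subunit, fell to 4.0 ± 0.781 TPM with lysine, against 6.26 ± 0.535 TPM with PBS, and its adjusted p of 0.0159 became 0.0567 without the first PBS sample. The 5 others were Zfp622, Zfp638, Zfp106, Zfp830 and Zfp318. Zfp638 was at 29.98, 33.81 and 39.44 TPM with lysine and at 20.88, 29.33 and 28.42 TPM with PBS, just apart but uncalled (adjusted p = 0.074).

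All 4 listed members with roles in ubiquitin, SUMO or receptor signalling rose (median 0.798), beside 25.8% of all tested genes, and 2 of the 4 are also among the 8 largest rises. Besides Zfp91 and Zfp451 these were the paralogs Zfp110 and Zfp369, KRAB and SCAN proteins first found as partners of the neurotrophin receptor p75. Zfp110 was at 22.94, 22.78 and 19.3 TPM with lysine and at 14.65, 14.83 and 15 TPM with PBS (adjusted p = 0.00272). Zfp369 was at 15.31, 16.83 and 14.15 TPM with lysine and at 12.09, 13.74 and 11.33 TPM with PBS, with the groups close to touching. Its adjusted p of 0.0461 was above the threshold in 4 of the 6 fits that left out a sample (up to 0.14).

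None of the 4 expressed differentiation genes was called by limma, and 1 higher and 1 lower had an unadjusted p under 0.05. Zfp703 was at 39.79, 38.82 and 37.54 TPM with lysine and at 32.59, 34.27 and 36.61 TPM with PBS, apart by a small gap (adjusted p = 0.0766). Zfp516, a driver of brown fat genes, averaged 16.9 ± 1.53 TPM with lysine and 15.3 ± 2.22 TPM with PBS (SD, n = 3 each; adjusted p = 0.337). Zfp467 averaged 1.41 ± 0.376 TPM with lysine and 2.2 ± 0.256 TPM with PBS, and Zfp296 averaged 2.69 ± 1.17 TPM with lysine and 3.17 ± 0.41 TPM with PBS. Zfp521, Zfp423, Zfp42 and Zfp365 did not reach the level.

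Zfp genes lie in tandem clusters, and chromosome 7 held 65 members, of which 18 rose and 19 fell. On chromosome 17 there were 33 (8 rose, 6 fell), and on chromosome 2 there were 19 (1 rose, 6 fell). Joining members less than 500 kb apart gave 12 clusters of 5 or more, with 106 members in all. Among 131 neighbouring pairs 31 had both genes called, 5 both higher, 12 both lower and 14 in opposite directions. These counts stand beside 24.0% of members and 25.8% of all tested genes called higher, and 24.7% and 29.3% called lower. Nothing particular to neighbours is read from them.

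The cluster with Zfp382, at bases 29768552 to 30169750 of chromosome 7, held 12 members, 5 higher and 3 lower. Those counts stand beside 25.8% higher and 29.3% lower over all tested genes. Zfp84, Zfp790, Zfp568, Zfp382 and Zfp146 rose. Zfp27, Zfp14 and Zfp82 fell. Zfp146, a protein of 10 fingers with hardly anything else, was at 32.6, 32.19 and 29.99 TPM with lysine and at 19.48, 18.98 and 18.4 TPM with PBS (log2 change 0.71 ± 0.066, adjusted p = 0.000259). Zfp568 and Zfp14, which stand side by side among the members, were called in opposite directions. However, Zfp14 was let in by the PBS samples alone, so its lower level with lysine was set by the rule. The 3 that fell averaged under 4 TPM in both groups, and the 5 that rose averaged over 4 TPM in both groups except Zfp382 in PBS.

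The largest cluster, at bases 21008903 to 23564238 of chromosome 17, held 19 members, 18 of them with a KRAB box. Zfp51, Zfp52, Zfp948, Zfp942 and Zfp758 rose, and Zfp983, Zfp760, Zfp945 and Zfp40 fell. Over all tested genes 25.8% rose and 29.3% fell. Zfp51 was nearly constant within its groups, at 6.92, 6.86 and 6.93 TPM with lysine and at 3.71, 4.16 and 4.2 TPM with PBS (adjusted p = 0.00122). Zfp40 went the other way, at 2.1, 2.4 and 1.48 TPM with lysine and at 4.01, 3.93 and 4.37 TPM with PBS (adjusted p = 0.00427).

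Another pair of clusters on chromosome 7 was smaller. At bases 12478293 to 12985714, 4 of 6 members fell (Zfp329, Zfp128, Zfp324 and Zfp446) and Zfp110 rose, beside 29.3% lower and 25.8% higher over all tested genes. Zfp128 and Zfp446 were let in by the PBS samples alone, so their lower level with lysine was set by the rule, and their calls were lost in 5 and 4 of the 6 fits that left out a sample. At bases 4915217 to 5053723, 3 of 5 fell, 0 rose (0 also at an unadjusted p under 0.05) and none had a KRAB box. There Zfp865 averaged 8.93 ± 0.88 TPM with lysine and 12.7 ± 0.712 TPM with PBS, and Zfp579 averaged 4.16 ± 0.936 TPM with lysine and 7.05 ± 0.861 TPM with PBS (SD, n = 3 each). Zfp524, the third, shares 56.7% of its coding words with another gene model. These genes were singled out by place after the values were seen.

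**Figure D5:**
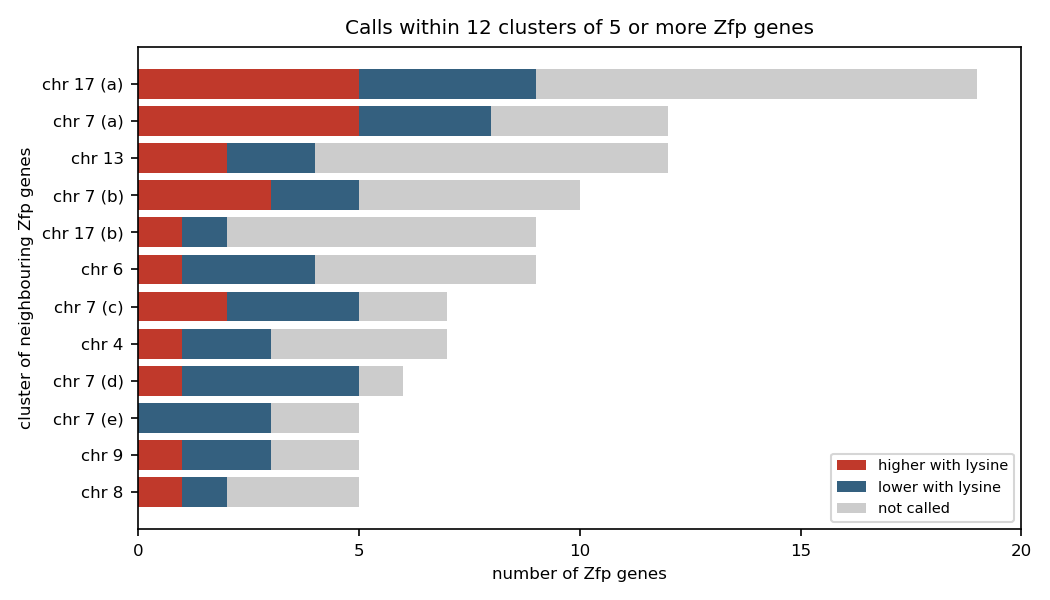
Number of Zfp genes (horizontal axis) called higher, lower or not called in each of the 12 clusters of 5 or more neighbouring members (vertical axis, letters separating clusters of a chromosome, largest at the top). The 19-member cluster on chromosome 17 has 5 higher and 4 lower, and chromosome 7 cluster e has 3 lower and none higher. Over all tested genes 25.8% were higher and 29.3% lower.

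Near-identical copies limit some members. In 17 members 50% or more of the 50-base words of the coding region occur in another annotated gene, and in Zfp973, Zfp965, Zfp966, Zfp967, Zfp968 and Zfp969 all of them do. Zfp973 was the member of these 6 that was called, at 6.49, 6.71 and 5.04 TPM with lysine and at 10.01, 7.14 and 9.73 TPM with PBS (adjusted p = 0.0374). Without the 17 members the counts were 62 higher and 61 lower. Exons of 18 members overlap those of a gene of at least the same TPM, over at most 23.3% of their length.

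The promoters of the members with the largest rise and the largest fall are printed to show what their start sites hold. The sequences come from RefSeq on GRCm38.p6 and run from 250 bases before the annotated gene start to 50 after it, on the strand of the gene. Capitals mark the matches, on either strand, to the motifs searched in both promoters.
Zfp382 promoter, chr7:30121682-30121981, + strand: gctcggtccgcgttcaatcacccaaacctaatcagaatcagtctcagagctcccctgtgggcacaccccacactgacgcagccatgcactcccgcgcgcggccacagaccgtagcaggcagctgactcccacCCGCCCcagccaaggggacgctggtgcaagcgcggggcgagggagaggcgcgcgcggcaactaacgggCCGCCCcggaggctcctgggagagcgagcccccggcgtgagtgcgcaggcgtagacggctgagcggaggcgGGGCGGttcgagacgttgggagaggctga
Zfp710 promoter, chr7:80024564-80024863, + strand: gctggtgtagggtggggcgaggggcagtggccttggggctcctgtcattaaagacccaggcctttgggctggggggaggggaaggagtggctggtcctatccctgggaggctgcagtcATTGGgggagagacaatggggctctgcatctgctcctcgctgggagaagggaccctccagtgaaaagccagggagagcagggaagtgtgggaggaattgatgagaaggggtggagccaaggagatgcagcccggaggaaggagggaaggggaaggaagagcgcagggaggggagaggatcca
The Zfp382 promoter has 3 GC boxes (GGGCGG), with first bases at 22, -118 and -50 from the start, the ones at -118 and -50 on the opposite strand. The Zfp710 promoter has 1 CCAAT box on the opposite strand at -132 and no GC box.

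Promoters were found by symbol for 222 of the 267 members, 271 promoters in all. They were searched on both strands, as were 32851 RefSeq promoters of all genes and the 11702 of tested genes. The ETS motif CCGGAAG was in 24.0% of member promoters, 18.4% of those of tested genes and 8.86% of all promoters. CCAAT was in 47.6%, 37.5% and 37.4% in the same order, and the GC box GGGCGG in 49.4%, 61.7% and 35.7%. The 9-letter core of the Zfp143 motif, ACTACAANT, was in 4.80%, 2.82% and 1.49%. The stress element TGATGNAA was in 0.738% of member promoters, 2.35% of those of tested genes and 3.97% of all promoters. In the same order the AP-1 motif TGANTCA was in 3.32%, 5.32% and 7.81%, the E-box CACGTG in 6.27%, 10.1% and 7.15%, and the cyclic AMP element TGACGTCA in 2.95%, 2.97% and 1.79%. Between the 67 promoters of rising members and the 60 of falling members, the ETS motif was in 25.4% and 28.3%, CCAAT in 40.3% and 48.3%, and the GC box in 50.7% and 43.3%. The cyclic AMP element was in 0 of the 67, which allows a share of up to 3 in 67, and in 4 of the 60. A match is a description of letters, not of a bound site.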

How the data were processed

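RNA of 6 samples, 3 with lysine and 3 with PBS, was measured by RNA-seq. The deposited table holds TPM per gene model, quantified with RSEM per the series' design text. The submitters' processing notes name HISAT2, StringTie, RSEM, edgeR and GRCm38.p6, with versions and settings not given in the sources used here. Columns headed K followed by a number were read as the lysine samples. The members and the gene lists were chosen with earlier results of these data known. Genes at 1 TPM or more in 3 samples or more were tested as log2(TPM + 1) with limma 3.58.1 in R 4.3.3 (trended prior), adjusted by Benjamini-Hochberg over 12539 genes. The fit was tested on simulated data in which 200 of 12539 genes were changed. It recovered 22.0%, 78.5% and 91.5% of log2 changes of 0.5, 1 and 2, with 4, 4 and 7 false calls. In the data 55.1% of genes were called, so these values may not carry over. A gene not called may thus have changed. An exact permutation test of 3 against 3 cannot go below p = 0.1, so single genes were tested only in that fit.

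The named genes were the 8 largest rises and falls without overlap between groups, the 5 most abundant members, the role lists, 7 KRAB partners (the 4 with the smallest adjusted p, with Trim28, Setdb1 and Chd4), the members nearest the level, those let in by 1 group, and the top marker of each cell type. Cluster members, Zfp973 and marker genes beyond these were added after their values were seen. Fingers were counted by pattern, and KRAB and SCAN by profiles (pyhmmer 0.12.3) built from 156 and 11 matched proteins, at an E-value of 1e-05, on the longest coding region of each gene in GENCODE M21. Of 55740 gene identifiers 52135 matched that annotation. Alternatives were the normalization, pseudocount, filter, prior, replicate block and leaving out each sample.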

Additional observations from a re-analysis of the deposited data

How the results depend on the processing

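The counts of 64 rises and 66 falls among members kept within 1.5 times under a pseudocount of 0.1, both other scalings, limma without the trended prior and rescaling to protein-coding genes, the last chosen after seeing the data. With every gene above 0 TPM tested, 50 members rose and 38 fell, 16 of them with a KRAB box. With a filter at 5 TPM, 139 members were left, 55 rose and 32 fell, 11 of the falls with a KRAB box, and the median log2 change was 0.146. Fewer or other genes tested is part of how these filters work. The median was 0.008 with median-of-ratios scaling and 0.07 with quantile normalization, and the cause was not tested. Leaving out 1 sample gave 53 to 62 rises, 45 to 57 falls, a median of -0.046 to 0.002 and 21 to 30 falling KRAB members, against 37. A replicate block gave 66 rises and 56 falls. Deviations of samples with the same number correlated at 0.171, 0.092 and 0.245, and all 6 samples correlated best with their own number. That is a hint of pairing from the data alone, and whether same-numbered samples were handled together was not tested. The main fit did not take the numbers as pairs, and the replicate block did. Of 75 named genes 54 kept their call in every alternative that tested them (at the 5 TPM filter 54 of the 75 were), 21 gained or lost it in at least 1, and 0 turned sign. TPM without counts leaves the depth unknown, which limits the members near 1 TPM most.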
